A study of Saccharomyces cerevisiae BY4741 with 24 samples.

Results

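The genes of trehalose synthesis and breakdown were followed in Saccharomyces cerevisiae cultures that grew in 0.5% or 2% glucose. Trehalose is a disaccharide of glucose that yeast stores when growth slows and that protects proteins and membranes during heat, drying and starvation. It is made from glucose 6-phosphate and UDP-glucose by a complex of a synthase, a phosphatase and regulatory subunits, and it is split into glucose again by trehalases in the cytosol and at the cell surface. The pathway is known for its transcription through stress elements in its promoters and for the control of its enzymes by phosphorylation.

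The 7 genes were taken by symbol from the array annotation, out of 5449 Saccharomyces cerevisiae genes measured, and each had 1 probe set of its own. The 4 synthesis genes were TPS1 (YBR126C), the trehalose-6-phosphate synthase, TPS2 (YDR074W), the trehalose-6-phosphate phosphatase, and the paralogous regulatory subunits TPS3 (YMR261C) and TSL1 (YML100W). The 3 breakdown genes were NTH1 (YDR001C), the main neutral trehalase of the cytosol, its paralog NTH2 (YBR001C), and ATH1 (YPR026W), the acid trehalase needed for growth on external trehalose. All 7 had group means well above 2.29, a level that 95% of the 1746 Schizosaccharomyces pombe probe sets, used as the background, stayed under.

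All cultures were of the laboratory strain BY4741, started at an OD600 of 0.2 and grown at 30 °C in the rich medium YPD. The restricted cultures had 0.5% glucose, which the study used as calorie restriction, and the control cultures had 2% glucose. Both were harvested 12, 18, 24 and 48 h after inoculation, which gave 8 groups of 3 arrays and 24 Affymetrix Yeast Genome 2.0 arrays in all. The series design calls the 3 arrays of a group biological replicates. The design text asks which changes across these harvest times go with the longevity potential of the restricted cells. Time and culture stage run together in this design, so that a change of cell state and a change of the mix of cells in a culture cannot be told apart. Likewise, fewer cells of a kind and less RNA per cell cannot be told apart in RNA from a whole culture.

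Values are expression values on a log scale taken as log2, quantile normalized so that every array has the same distribution. A difference of a probe set between groups can be read as a change relative to all other probe sets, while levels of different genes cannot be compared. The first principal component held 58.2% of the variance, and on it the 3 arrays of 0.5% glucose at 48 h scored 61.9 to 64.7, against -22.0 to 13.2 for the other 21 arrays. The 12 spike-in probe sets read poly-A control transcripts that are usually added to each sample, a step the labels do not describe. They averaged 4.85 ± 0.19 in 0.5% glucose at 48 h against 4.36 ± 0.22 in 2% glucose at 48 h (SD, n = 3 each). At 12 h these averages were 3.878 ± 0.18 against 4.28 ± 0.079. They were 4.067 ± 0.345 against 4.228 ± 0.301 at 18 h and 4.22 ± 0.247 against 4.486 ± 0.315 at 24 h. The ranges of 1 SD thus overlapped at 18 and 24 h, which limits the spike-in scale at these times. On a scale set by the spike-ins the median of all genes for 0.5% minus 2% glucose was 0.35, 0.16, 0.27 and -0.41 at 12, 18, 24 and 48 h, where the deposited scale gave -0.05 to 0.08. Directions that change on the spike-in scale are given beside each result, and the part of this shift in the results was not tested. The genes MFA1, MFA2, STE2, STE6 and BAR1, which mark the mating type a of BY4741, had group means of 4.75 to 10.64, and all 5 were lower in the restricted cultures at 12 h (-3.21 to -1.50), 18 h (-1.25 to -0.40) and 48 h (-2.70 to -1.81). At 24 h 4 of the 5 were lower (-1.16 to -0.59), and MFA1 was at 0.11. The mating type alpha genes MF(ALPHA)1, MF(ALPHA)2 and STE3 had group means of 1.90 to 5.93, and STE3 was higher in the restricted cultures at every time, by 0.74 to 1.36. MF(ALPHA)1 differed by 0.20, 0.00, 1.21 and -0.36 at 12, 18, 24 and 48 h, and MF(ALPHA)2 by -0.01, -0.02, 0.05 and -0.83. The part of these shifts in the results was not tested. Of the genes that carry a deletion in this strain, MET17 and URA3 were below the background in every group. LEU2 was at 1.78 to 2.54, and HIS3 was at 4.72 to 5.36, above the background in every group. What the HIS3 probe set reads in this strain was not tested.

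TPS1 had group means of 10.54 to 10.91 in 7 of the 8 groups and 10.21 ± 0.10 (SD, n = 3) in the restricted cultures at 48 h. In 0.5% glucose its 3 arrays read 10.52, 10.54 and 10.57 at 12 h, 10.76, 10.79 and 10.74 at 18 h, 10.80, 10.74 and 10.77 at 24 h, and 10.14, 10.17 and 10.32 at 48 h. In 2% glucose they read 10.69, 10.65 and 10.68 at 12 h, 10.68, 10.71 and 10.70 at 18 h, 10.90, 10.96 and 10.88 at 24 h, and 10.63, 10.70 and 10.72 at 48 h. Every restricted array at 48 h was below every other array of the series, and the arrays at 18, 12 and 48 h in 2% glucose overlapped as neighbours in the order of levels.

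On the deposited scale TPS2, the next enzyme of the path, hardly moved. Its 24 arrays lay between 9.56 and 9.86, and its group means spanned 0.20 log2 units, or 1.15-fold, with the highest, 9.83, in 0.5% glucose at 18 h and the lowest, 9.63, in 0.5% glucose at 24 h. Only 0.532% of all genes had a smaller span, where the median gene spanned 1.11. The arrays at 18 h in 0.5% glucose, at 9.80, 9.82 and 9.86, were the only ones set apart from their neighbours in the order of levels. All other neighbouring groups overlapped. On the spike-in scale the difference of TPS2, 0.5% minus 2% glucose, was 0.36 at 12 h and -0.40 at 48 h.

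The regulatory subunits TPS3 and TSL1 varied most among the synthesis genes. TPS3 read 8.29, 8.35 and 8.36 at 12 h, 8.10, 8.22 and 8.23 at 18 h, 7.93, 7.93 and 7.92 at 24 h, and 6.56, 6.69 and 6.65 at 48 h in 0.5% glucose. In 2% glucose it read 8.15, 8.11 and 8.15 at 12 h, 8.16, 8.12 and 8.12 at 18 h, 8.53, 8.61 and 8.49 at 24 h, and 7.83, 7.92 and 7.85 at 48 h. The restricted cultures were thus above the controls at 12 h, overlapped with them at 18 h, and were below them at 24 and 48 h. The span of its group means, 1.91 or 3.75-fold, was larger than that of 82.6% of genes.

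TSL1 read 10.12, 10.24 and 10.23 at 12 h, 10.40, 10.51 and 10.44 at 18 h, 10.18, 10.10 and 10.08 at 24 h, and 9.23, 9.30 and 9.30 at 48 h in 0.5% glucose. In 2% glucose it read 10.72, 10.64 and 10.59 at 12 h, 10.56, 10.55 and 10.52 at 18 h, 10.76, 10.76 and 10.62 at 24 h, and 10.50, 10.43 and 10.54 at 48 h. No restricted array of TSL1 reached a control array of the same time, and the narrowest gap was at 18 h. TPS1, TPS3 and TSL1 all had their lowest group mean in 0.5% glucose at 48 h and their highest in 2% glucose at 24 h.

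Among the trehalases, NTH1 read 8.84, 8.94 and 8.98 at 12 h, 9.24, 9.22 and 9.25 at 18 h, 9.26, 9.28 and 9.22 at 24 h, and 9.89, 9.94 and 9.87 at 48 h in 0.5% glucose. In 2% glucose its 12 arrays stayed between 9.49 and 9.68. The restricted arrays lay below all control arrays at 12, 18 and 24 h and above all of them at 48 h. NTH2 lay at 7.49 to 7.69 on the 9 restricted arrays of 12, 18 and 24 h and at 8.15, 8.26 and 8.22 on those of 48 h. Its control arrays read 8.46, 8.45 and 8.45 at 12 h, 8.12, 8.08 and 8.13 at 18 h, 7.97, 8.05 and 7.95 at 24 h, and 8.19, 8.26 and 8.24 at 48 h, so that the glucose groups overlapped at 48 h alone.

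ATH1 had the widest span of the 7 genes, 2.11 log2 units or 4.32-fold, more than 86.9% of genes. It read 8.01, 8.12 and 8.09 at 12 h, 8.71, 8.56 and 8.59 at 18 h, 8.84, 8.79 and 8.76 at 24 h, and 10.25, 10.15 and 10.15 at 48 h in 0.5% glucose. In 2% glucose it read 8.40, 8.47 and 8.48 at 12 h, 8.80, 8.81 and 8.69 at 18 h, 8.93, 8.81 and 8.85 at 24 h, and 9.33, 9.26 and 9.33 at 48 h. Both cultures had their highest levels at 48 h, and the restricted arrays were then above all others of the series. At 18 and 24 h the glucose groups overlapped.

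**Figure D1:**
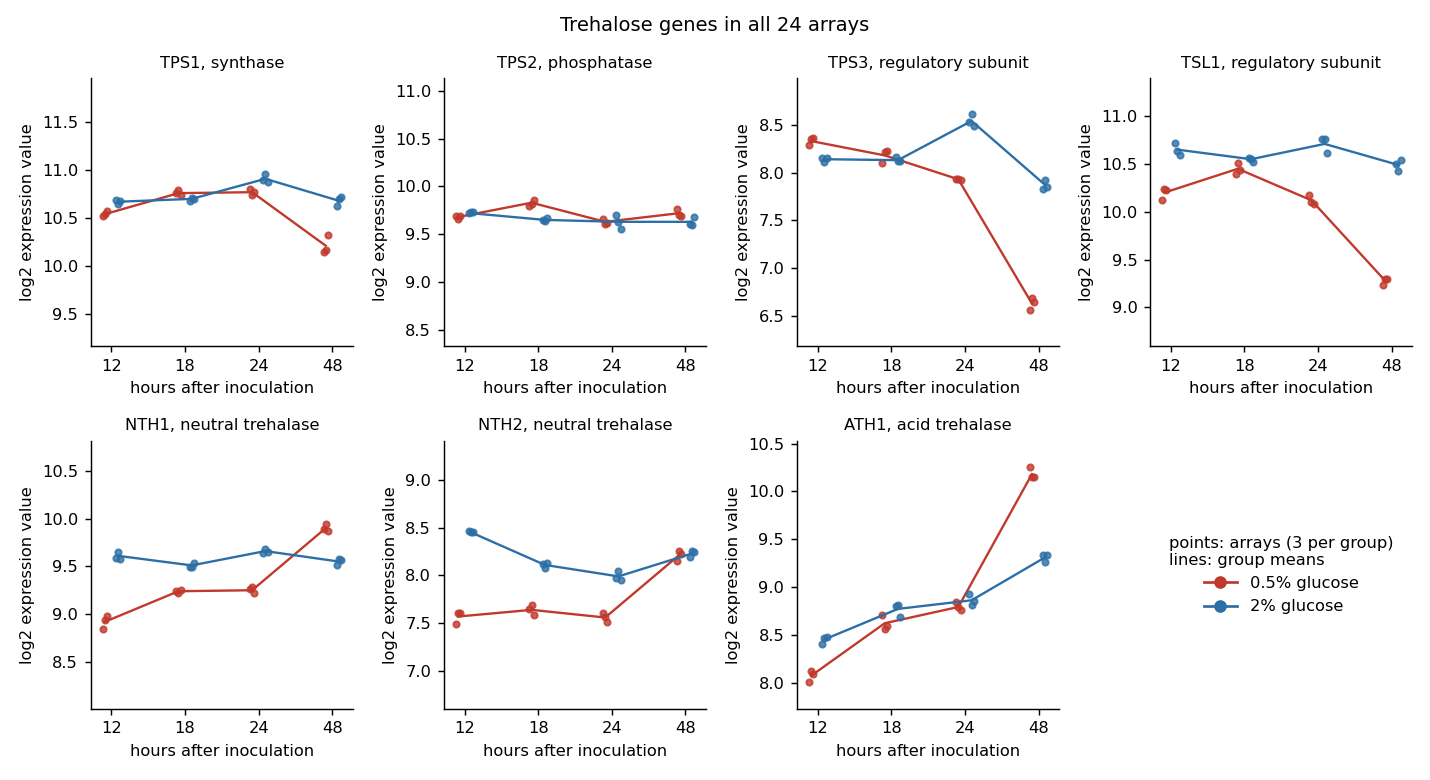
Deposited log2 level of each of the 7 genes (vertical axis, log2 expression value) against harvest time in hours (equally spaced positions), with 1 point per array and lines through the means of 3 arrays for 0.5% and 2% glucose. TPS2 stays between 9.56 and 9.86, TPS3 drops to a mean of 6.63 and ATH1 reaches a mean of 10.18 in 0.5% glucose at 48 h.

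The effect of glucose was tested at each time as 0.5% minus 2% with a linear model over all genes (limma, moderated statistics, Benjamini-Hochberg adjusted p under 0.05). At 12 h TPS3 was higher in restricted cultures and 5 genes were lower, where 73.4% of all genes were called, 32.2% higher and 41.2% lower. The median of the 7 log2 differences was -0.38, against -0.05 for all genes. On the spike-in scale it was 0.02, with 3 genes higher and 2 lower by group means of the spike-ins, and 1 higher and 0 lower when each array was set by its own. Of all 5449 genes, 3776 were higher and 633 lower by group means, and 1966 and 195 by the spike-ins of each array.

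On the deposited scale the neutral trehalases had the largest differences at 12 h. NTH2 was lower by 1.85-fold (log2 difference -0.88 ± 0.05 SE, adjusted p = 1.31e-13) and NTH1 by 1.61-fold (-0.69 ± 0.04, adjusted p = 1.55e-12). On the spike-in scale NTH2 was at -0.48 and NTH1 at -0.29. Neither was called when each array was set by its own spike-ins (adjusted p = 0.0644 and 0.302). ATH1 was lower as well (-0.38 ± 0.05, adjusted p = 8.65e-07), although its difference was 0.02 on the spike-in scale. Among the synthesis genes TSL1 was lower, at -0.45 ± 0.05 (adjusted p = 5.34e-08), a call that was lost on the spike-in scale, at -0.05 (adjusted p = 0.345). TPS3 was higher by 0.19 ± 0.05 (adjusted p = 0.0006), and by 0.60 on the spike-in scale, the largest difference of the 7 genes there. TPS1 was lower, at -0.13 ± 0.04 (adjusted p = 0.0106) on the deposited scale, and its difference was 0.27 on the spike-in scale. TPS2 differed by -0.04 (adjusted p = 0.316), with 0.36 on the spike-in scale.

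At 18 h only TPS2 was called higher, and the 3 trehalases were called lower, beside 25.5% and 24.8% of all genes (50.3% together). With spike-in group means 3 were higher and 2 lower, and 0 in either direction when each array was set by its own spike-ins. Of all 5449 genes, 2802 were higher and 579 lower by group means, and 187 and 59 by the spike-ins of each array. NTH2 was lower, at -0.47 ± 0.05 (adjusted p = 3.8e-08) and NTH1 at -0.27 ± 0.04 (adjusted p = 1.28e-05). TPS2 was higher by 0.17 ± 0.04 (adjusted p = 0.000919). The call of ATH1, at -0.15 ± 0.05 (adjusted p = 0.0195), was weaker: its arrays overlapped, and its difference was 0.01 on the spike-in scale. That call was also lost without replicate 1 (adjusted p = 0.0712) or 2 (0.0818) of 2% glucose, or replicate 2 (0.0922) or 3 (0.07) of 0.5% glucose, in a range of 0.00378 to 0.0922 over its 14 alternatives on the deposited scale. TPS1, TPS3 and TSL1 differed by 0.07, 0.05 and -0.10 and did not pass, and TSL1 was at 0.06 on the spike-in scale.

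At 24 h 5 of the 7 genes were lower in restricted cultures and 0 were higher, beside 31.4% and 31.6% of all genes (63.0% together). With spike-in group means 3 were higher and 4 lower, and 0 in either direction when each array was set by its own spike-ins. Of all 5449 genes, 3499 were higher and 673 lower by group means, and 1065 and 150 by the spike-ins of each array. The median of the 7 genes was -0.41, against 0.00 for all genes. The regulatory subunits had the largest differences, -0.61 ± 0.05 or 1.53-fold for TPS3 (adjusted p = 1.6e-10) and -0.59 ± 0.05 or 1.51-fold for TSL1 (adjusted p = 1.7e-09). The neutral trehalases were lower too, NTH2 at -0.43 ± 0.05 (adjusted p = 4.22e-08) and NTH1 at -0.41 ± 0.04 (adjusted p = 1.78e-08). TPS1 was lower, at -0.14 ± 0.04 (adjusted p = 0.00721), with 0.12 on the spike-in scale. TPS2 had a mean of 9.63 in both media, and ATH1 differed by -0.07 (adjusted p = 0.256). On the spike-in scale both were positive, at 0.26 for TPS2 and 0.20 for ATH1.

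At 48 h 3 of the 4 synthesis genes were lower in restricted cultures, and 2 of the 3 breakdown genes were higher. With TPS2 this made 3 genes higher and 3 lower, beside 46.0% and 37.8% of all genes (83.8% together). On the scale of the spike-in group means 1 was higher and 6 were lower, beside 1055 and 3562 of all 5449 genes. TPS3 was lower by 2.35-fold (-1.23 ± 0.05, adjusted p = 1.43e-16), TSL1 by 2.32-fold (-1.21 ± 0.05, adjusted p = 1.42e-15) and TPS1 by 1.39-fold (-0.48 ± 0.04, adjusted p = 1.24e-09). ATH1 was higher by 1.83-fold (0.88 ± 0.05, adjusted p = 4.7e-13), and stayed higher on the spike-in scale, at 0.39 (adjusted p = 3.52e-07 with group means of the spike-ins). When each array was set by its own spike-ins the SE was 0.22, and TPS1, TPS3, TSL1 and NTH2 were called lower, while ATH1 was not called. Of all genes 516 were then called higher and 2493 lower. NTH1 was higher by 1.27-fold on the deposited scale (0.35 ± 0.04, adjusted p = 6.19e-08), while its difference on the spike-in scale was -0.14.

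NTH2, the paralog of NTH1, differed by -0.02 at 48 h (adjusted p = 0.651), with -0.51 on the spike-in scale. TPS2 was higher by 0.09 ± 0.04 (adjusted p = 0.0472), with -0.40 on the spike-in scale. With the replicate number as a block its adjusted p was 0.0521. The call was also lost without replicate 1 (0.123) or 2 (0.14) of 2% glucose or replicate 1 (0.171) or 2 (0.0567) of 0.5% glucose, in a range of 0.0211 to 0.171 over its 14 alternatives on the deposited scale.

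**Figure D2:**
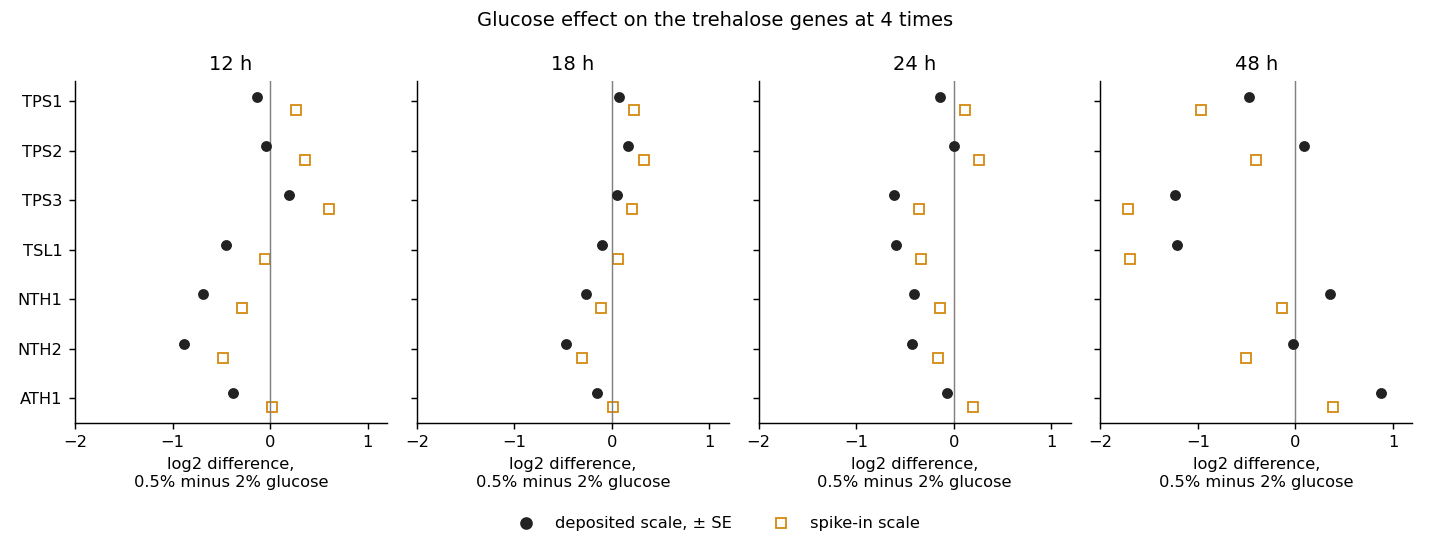
Log2 difference of 0.5% minus 2% glucose for each of the 7 genes at the 4 harvest times, with filled circles for the deposited scale, SE bars that are narrower than the circles, and open squares for the spike-in scale. At 48 h TPS3 and TSL1 lie at -1.23 and -1.21 and ATH1 at 0.88, and the squares of NTH1 (-0.14) and TPS2 (-0.40) fall on the other side of 0.

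Whether the glucose effect of a gene differed between the 4 times was tested by an F test over the 3 differences from 12 h. All 7 genes passed, beside 91.7% of all genes, so the count is near the background. The F values were highest for TPS3, at 211 (adjusted p = 1.77e-14), followed by ATH1 at 118 (adjusted p = 2.11e-12) and NTH1 at 116 (adjusted p = 2.46e-12). The value was lowest for TPS2, at 6.12 (adjusted p = 0.0044). Without the 48 h arrays all 7 still passed, beside 3852 of all 5449 genes. The F values were then 96 for TPS3, 31.2 for NTH2, 26.2 for NTH1, 24.2 for TSL1, 10.2 for TPS1, 9.49 for ATH1 and 8.67 for TPS2. When each array was set by its own spike-ins, TPS1, TPS3 and TSL1 passed. Over the spike-in scales 3296 to 5236 of all 5449 genes passed.

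Within each medium the successive harvests were compared as later minus earlier. In 0.5% glucose 5 genes rose and 1 fell between 12 and 18 h, beside 30.0% and 30.2% of all genes (60.1% together). The largest step was that of ATH1, at 0.54, followed by NTH1 at 0.32, TSL1 at 0.25 and TPS1 at 0.22. With spike-in group means TSL1 was at 0.06 (adjusted p = 0.28) and TPS1 at 0.03 (adjusted p = 0.531), and neither passed. TPS2 rose by 0.15 on the deposited scale, with -0.04 on the spike-in scale. TPS3 fell by 0.15, a call that was lost without replicate 1 of 18 h (-0.11, adjusted p = 0.0591). Between 18 and 24 h ATH1 rose by 0.18 (0.02 and not called with spike-in group means), and TSL1, TPS3 and TPS2 fell by 0.33, 0.25 and 0.20, which made 1 higher and 3 lower beside 24.6% and 24.1% of all genes (48.7% together).

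Between 24 and 48 h in 0.5% glucose all 7 genes passed, 4 higher and 3 lower, beside 45.8% and 39.4% of all genes (85.2% together). ATH1 rose 2.62-fold (1.39 ± 0.05, adjusted p = 9.14e-17), and TPS3 fell 2.45-fold (-1.29 ± 0.05, adjusted p = 4.32e-17). TSL1 fell 1.79-fold (-0.84 ± 0.05, adjusted p = 6.19e-13) and TPS1 by 0.56 ± 0.04 (adjusted p = 5.98e-11). These 4 steps kept their direction and their call when each array was set by its own spike-ins, at 0.76, -1.93, -1.48 and -1.19. NTH1 and NTH2 both rose by 0.65 on the deposited scale, with 0.01 for each on the spike-in scale. TPS2 rose by 0.09 (adjusted p = 0.0432), with -0.55 on the spike-in scale and an adjusted p of 0.0565 with the replicate block. That call was also lost without replicate 2 (0.114) or 3 (0.0987) of 24 h or replicate 1 (0.16) or 2 (0.0519) of 48 h.

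In 2% glucose between 12 and 18 h ATH1 rose by 0.31 (adjusted p = 1.28e-05), NTH2 fell by 0.34 (adjusted p = 7.68e-07) and NTH1 fell by 0.10 (adjusted p = 0.0329), beside 30.5% of genes higher and 37.9% lower (68.4% together). The call of NTH1 was lost without replicate 2 of 12 h (0.128) or replicate 1 (0.0788) or 2 (0.0931) of 18 h. TSL1, at -0.10, did not pass but did without replicate 3 of 12 h (adjusted p = 0.0439). Between 18 and 24 h TPS3 rose by 0.41 (adjusted p = 2.74e-07), and 4 genes in all were higher and 1 lower beside 25.2% and 24.5% of all genes (49.7% together). TPS1, TSL1 and NTH1 rose by 0.21, 0.17 and 0.15 on the deposited scale, with -0.04, -0.09 and -0.11 on the spike-in scale. The call of TSL1 was lost without replicate 1 of 24 h (0.0504), and that of NTH2, at -0.12, was lost without replicate 1 (0.0723) or 3 (0.096) of 18 h or replicate 1 (0.0867) or 3 (0.117) of 24 h.

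Between 24 and 48 h in 2% glucose 2 genes rose and 4 fell, beside 31.5% and 30.4% of all genes (61.9% together). ATH1 rose by 0.45 (adjusted p = 1.51e-07) and NTH2 by 0.24. TPS3 fell by 0.67 (adjusted p = 5.21e-11), TPS1 by 0.23 and TSL1 by 0.22, of which TSL1 was not called with spike-in group means, at -0.10 (adjusted p = 0.0881). NTH1 fell by 0.11 on the deposited scale, with 0.02 on the spike-in scale. Its call was lost without replicate 2 (0.0907) or 3 (0.0528) of 24 h or replicate 1 of 48 h (0.12). ATH1 rose and TPS3 fell in both media after 24 h, by 1.39 and -1.29 in 0.5% glucose against 0.45 and -0.67 in 2% glucose, a difference covered only by the F test over all times.

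To describe the balance within the pathway, each gene was set against TPS1 on the same array. Such a ratio removes a shift shared by all values of an array. It does not remove effects of the quantile normalization that differ between high and low values. This measure was chosen after the values were seen and is given as a description. The log2 ratio of ATH1 to TPS1 at 48 h was 0.11, -0.02 and -0.17 on the restricted arrays, against -1.30, -1.44 and -1.39 on the control arrays, a difference of 1.35 ± 0.09 (SE). At 12 h the difference was -0.25 ± 0.04. For NTH1 the difference was -0.56, -0.34, -0.26 and 0.82 at 12, 18, 24 and 48 h, and for NTH2 it was -0.75, -0.53, -0.29 and 0.45. Relative to the synthase the neutral trehalases were thus lower in 0.5% than in 2% glucose through 24 h and higher at 48 h. Arrays did not overlap at any of these times. The ratios at 48 h include the change of TPS1 itself, which differed by -0.48 on the deposited scale. There NTH1 differed by 0.35, NTH2 by -0.02 and ATH1 by 0.88.

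The subunits of the synthase complex shifted against each other too. TPS3 over TPS1 differed by 0.33, -0.02, -0.47 and -0.76 at 12, 18, 24 and 48 h, and TSL1 over TPS1 by -0.32, -0.16, -0.45 and -0.74. TPS2 over TPS1 differed by 0.09, 0.11, 0.14 and 0.56. At 48 h the ratios of TPS2 to TPS1 were -0.38, -0.47 and -0.63 on the restricted arrays, against -1.02, -1.10 and -1.04 on the control arrays.

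**Figure D3:**
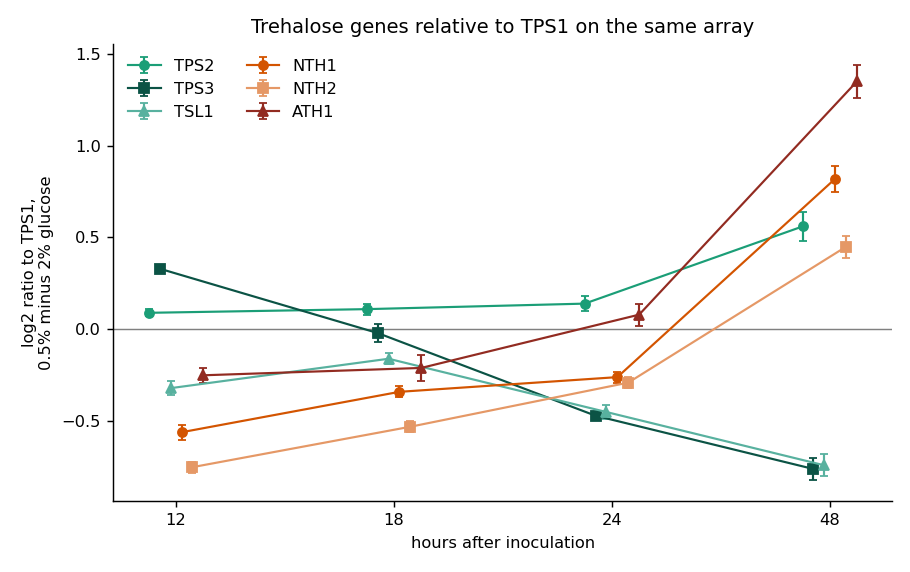
Log2 ratio of 6 genes to TPS1 on the same array, shown as the difference of 0.5% minus 2% glucose (vertical axis) at 12, 18, 24 and 48 h, with SE bars from 3 arrays per group. ATH1, NTH1, TPS2 and NTH2 end above 0 at 48 h (1.35, 0.82, 0.56 and 0.45), and TPS3 and TSL1 end below it (-0.76 and -0.74).

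Over the 8 group means TPS1, TPS3 and TSL1 ran together, with Pearson correlations of 0.86 for TPS1 and TPS3, 0.87 for TPS1 and TSL1, and 0.90 for TPS3 and TSL1. Without the restricted group at 48 h, over 7 means, these were 0.29, 0.44 and 0.38, so they rest on that group. The correlation of TPS3 with ATH1 was -0.87 over 8 means and -0.46 over 7. That of the paralogs NTH1 and NTH2 was 0.80 over 8 means and 0.82 over 7. TSL1 and NTH1 correlated at -0.23 over 8 means and at 0.84 over 7. All points share the quantile normalization, and no test was made.

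Among 4929 genes with a highest group mean above background and a span of at least 0.5 log2 units, the pattern over the 8 group means most like that of TPS1 was that of RPN2, at r = 0.981, followed by PDC5 and YRO2. RPN2 encodes a proteasome subunit and PDC5 a pyruvate decarboxylase. TPS3 was most like GIC2, at 0.987, and ACO1, the mitochondrial aconitase, at 0.985. TSL1 was most like TDA4 at 0.994 and CPR6, a cyclophilin that binds Hsp90, at 0.986. NTH1 was nearest to FUS2, a cell fusion gene, at 0.981, and NTH2 to FIG2, a mating adhesin, at 0.985. ATH1 was nearest to AKR2 and BLM10, both at 0.993 (BLM10 encodes a proteasome activator). TPS2 had no close match, with a highest value of 0.754 for YOL155W-A. Without the restricted group at 48 h the same correlations, over 7 means, were 0.963 for TPS1 with RPN2, 0.94 for TPS3 with GIC2, 0.968 for TSL1 with TDA4, 0.973 for NTH1 with FUS2, 0.985 for NTH2 with FIG2, and that of ATH1 with AKR2 was 0.983. RPN2 and GIC2 stayed in the first place for TPS1 and TPS3, TDA4 and FIG2 were in place 2 for TSL1 and NTH2, AKR2 in place 5 for ATH1, YOL155W-A in place 8 for TPS2 and FUS2 in place 11 for NTH1.

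The genes around the pathway were taken from lists by role. Precursor supply, the enzymes that turn glucose into glucose 6-phosphate and UDP-glucose, had 2 genes higher and 3 lower of 6 at 12 h, beside 32.2% and 41.2% of all genes, and 4 higher and 1 lower with spike-in group means. At 12 h the hexokinase HXK2 was higher by 1.25 and the paralog HXK1 lower, at -1.12, and the phosphoglucomutase PGM1 was higher by 1.25. At 18 h 0 were higher and 2 lower (4 and 2 with spike-in group means), beside 25.5% and 24.8% of all genes. At 24 h 0 were higher and 5 lower (1 and 4 with spike-in group means), beside 31.6% and 31.4% of all genes, with HXK2 among the lower at -1.29. With spike-in group means 3776, 2802 and 3499 of all 5449 genes were higher at 12, 18 and 24 h, and 633, 579 and 673 lower. At 48 h all 6 were lower, beside 37.8% of all genes, with a median of -2.16, against 0.08 for all genes. There HXK2 was lower by 15.0-fold (-3.91), the phosphoglucomutase PGM2 by 6.08-fold (-2.60), HXK1 by 4.77-fold (-2.25) and UGP1, which makes UDP-glucose, by 4.18-fold (-2.06).

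Glycogen is the other glucose store of yeast and draws on the same UDP-glucose. Of its 7 enzymes, 6, 3, 5 and 6 were lower in restricted cultures at 12, 18, 24 and 48 h, and 0, 1, 1 and 0 were higher. Of all genes 41.2%, 24.8%, 31.4% and 37.8% were lower at these times. With spike-in group means 5, 1, 4 and 7 were lower and 1, 2, 2 and 0 higher. On that scale 633, 579, 673 and 3562 of all 5449 genes were lower, and 3776, 2802, 3499 and 1055 higher. At 48 h the phosphorylase GPH1 was lower by 13.8-fold (-3.78), the synthase GSY2 by 5.37-fold (-2.42), with its paralog GSY1 at -1.59, and the debranching enzyme GDB1 by 2.14-fold (-1.10). Synthesis and degradation enzymes of glycogen thus were both lower at 48 h, where the trehalases NTH1 and ATH1 were higher than in 2% glucose on the deposited scale (NTH1 lower, at -0.14, on the spike-in scale). The transporter MAL11, which takes up external trehalose, was lower at 12 h, at -1.28.

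The last lists held regulators known to act on the pathway and stress genes. Of the 4 transcription factors the stress factor MSN4 was lower, with -1.28 at 12 h, -1.43 at 24 h and -2.75 at 48 h, and its paralog MSN2 was higher by 1.27 at 48 h. The stress panel was a set of genes known for their induction by stress. At 48 h 4 of its 6 genes were lower, beside 37.8% of all genes. They were the small heat shock protein HSP42 at -2.42, the disaggregase HSP104 at -1.59, CTT1 and HSP26. At 12, 18 and 24 h 4, 2 and 2 genes of the panel were lower, beside 41.2%, 24.8% and 31.4% of all genes. At these times 0, 1 and 2 were higher, beside 32.2%, 25.5% and 31.6% of all genes. HSP12, HSP26 and DDR2 of this panel lay at 11.99 to 12.57, close to the highest value of the table. This limits what their differences can show. The 3 trehalase regulators were the 14-3-3 proteins BMH1 and BMH2 and the NTH1 inhibitor DCS1. At 48 h DCS1 was higher by 0.26 and BMH1 lower, at -0.54, beside 46.0% and 37.8% of all genes. All 3 were lower at 48 h with spike-in group means, where 3562 of all 5449 genes were lower. At 12 h the deposited scale gave the opposite directions, -0.41 for DCS1 and 0.38 for BMH1. There 1 of the 3 was higher and 2 were lower, beside 32.2% and 41.2% of all genes. None of the named differences of neighbouring genes of 2-fold or more changed direction on the spike-in scale.

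**Figure D4:**
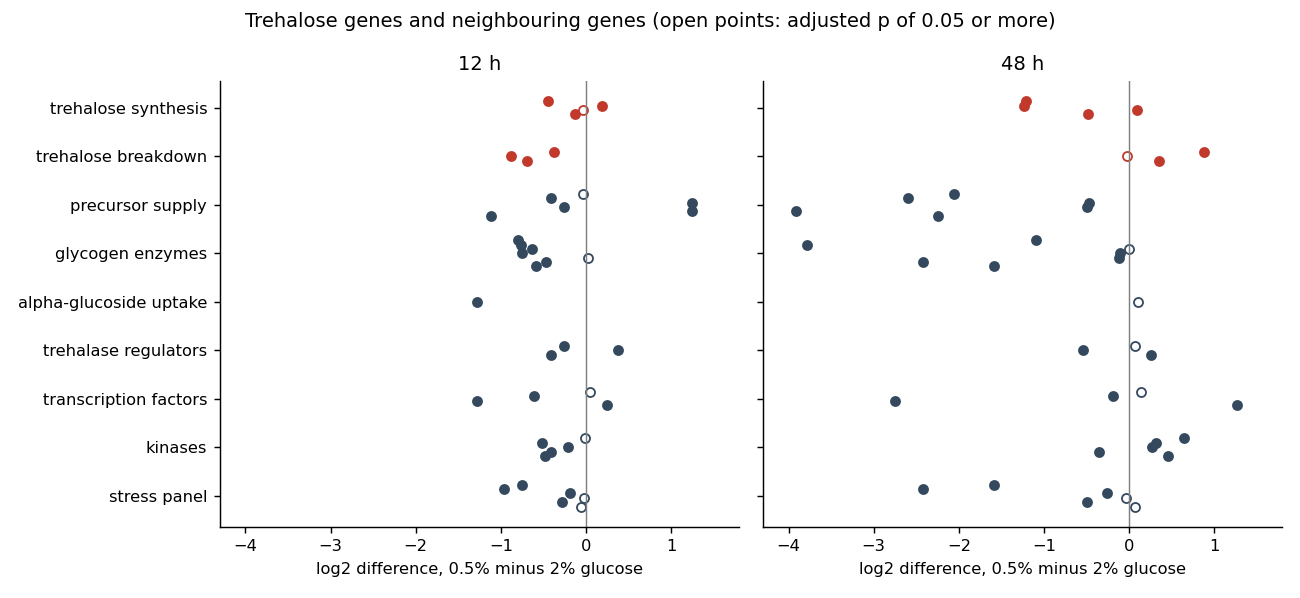
Log2 difference of 0.5% minus 2% glucose in the 7 trehalose genes and the neighbouring genes of the pathway, with 1 row per role and 1 panel each for 12 and 48 h. Red points are the trehalose genes, dark points the neighbouring genes, and open points did not pass the test. At 48 h GPH1 (-3.78) and HXK2 (-3.91) have the lowest values and MSN2 (1.27) and ATH1 (0.88) stand among the higher ones.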

How the data were processed

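RNA of 24 yeast cultures in 8 groups of 3 was hybridized to Affymetrix Yeast Genome 2.0 arrays, and per the labels' protocols RNA was extracted with TRIzol and labelled as biotin cRNA. The log2 values used here are those deposited by the authors. Their log scale and quantile normalization were inferred from the values, which ran from 0.60 to 12.57 and differed by at most 0.0095 between sorted columns. Partek appears, per the submitters' processing notes, without its version or its use. How the background was corrected, how probes were summarized and which log base was used is not given in the sources used here.

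Of 10928 probe sets, 5498 were annotated to 1 Saccharomyces cerevisiae gene and gave 5449 genes. Where a gene had more than 1 probe set, as 47 had, the brightest on average stood for it. The 7 trehalose genes were named in every comparison, with neighbouring genes from lists by role, and only those neighbours that passed the test and changed by at least 2-fold were given values, apart from DCS1, BMH1 and 5 kinase genes chosen after their values were seen. The 3 genes most like each member were ranked by Pearson's r. Members and lists were chosen with earlier results of these data known. Groups were compared with limma 3.58.1 in R 4.3.3 over all 24 arrays, with Benjamini-Hochberg adjustment over all genes within each comparison and a threshold of 0.05. The code was tested on simulated data. Python 3.11.15, pandas 2.3.3 and matplotlib 3.10.9 served for tables and figures.

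The replicate numbers of the titles were checked as pairs by the correlation of residuals, which had to be above 0.1 in each pair. The rule was met for 0.5% against 2% glucose at 12, 18 and 24 h (lowest correlations 0.109, 0.229 and 0.117) and for the step between 12 and 18 h in 2% glucose (lowest 0.148). There the block changed no call of the 7 genes. Alternatives were another normalization, centring, the filter on dim genes, the variance model, array weights, the arrays compared alone, the block, all probe sets of a gene, spike-in scales and each array left out. The number of arrays limits the precision. Promoter and protein sequences were not analysed here.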

Additional observations from a re-analysis of the deposited data

Results flagged for a closer look

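The glucose effect differed between the 4 harvest times for all 7 genes by the limma F test over the differences from 12 h. The F values were 26.5 for TPS1, 6.12 for TPS2, 211 for TPS3, 84.4 for TSL1, 116 for NTH1, 60.9 for NTH2 and 118 for ATH1, with adjusted p between 1.77e-14 and 0.0044. Since 91.7% of all genes passed this test, passing it does not set these genes apart. Without the 48 h arrays the F values lay between 8.67 and 96, and all 7 genes passed, beside 3852 of all 5449 genes. The sign of the glucose effect on the deposited scale differed between 12 and 48 h for NTH1 (-0.69 and 0.35), ATH1 (-0.38 and 0.88) and TPS3 (0.19 and -1.23). On the spike-in scale NTH1 was at -0.29 and -0.14, ATH1 at 0.02 and 0.39, and TPS3 at 0.60 and -1.72.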

How the results depend on the processing

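Sign changes in which the main or the alternative value passed the test occurred only on the spike-in scales, where p-values based on group means ignore how far spike-ins vary within a group. The values there, 0.5% minus 2% glucose, were 0.27 (TPS1), 0.36 (TPS2) and 0.02 (ATH1) at 12 h, 0.01 (ATH1) at 18 h, 0.12 (TPS1), 0.26 (TPS2) and 0.20 (ATH1) at 24 h, and -0.40 (TPS2) and -0.14 (NTH1) at 48 h. For steps in 0.5% glucose they were -0.04 (TPS2) and -0.11 (NTH2) from 12 to 18 h, -0.15 (TPS1) and -0.14 (NTH1) from 18 to 24 h, and -0.55 (TPS2) from 24 to 48 h. For steps in 2% glucose they were -0.04 (TPS1), -0.09 (TSL1), -0.11 (NTH1) and -0.16 (ATH1) from 18 to 24 h, and 0.12 (TPS2) and 0.02 (NTH1) from 24 to 48 h. Differences near 0 that did not pass changed sign under other alternatives too, such as TPS2 at 24 h (-0.04 to 0.03) and NTH2 at 48 h (-0.05 to 0.01). The cause was not tested.

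With spike-in group means the members called higher and lower in 0.5% against 2% glucose were 3 and 2 at 12 h, 3 and 2 at 18 h, 3 and 4 at 24 h, and 1 and 6 at 48 h. Of all 5449 genes the counts were 3776 and 633, 2802 and 579, 3499 and 673, and 1055 and 3562. For the steps in 0.5% glucose the members called were 2 and 2, 0 and 6, and 1 and 4, in order of time. Of all genes these were 654 and 2981, 515 and 2620, and 985 and 3863. For the steps in 2% glucose the members called were 1 and 1, 1 and 4, and 3 and 2. Of all genes these were 1948 and 1760, 328 and 3690, and 2579 and 1062. When each array was set by its own spike-ins, 0 members were lower at 12 h, 18 h and 24 h, and 0 higher at 18 h and 48 h. From 24 to 48 h in 0.5% glucose 1 was higher and 4 lower, with 0 in either direction in the other steps. The F test was passed by 3 members. Of all genes 195, 59 and 150 were lower at 12, 18 and 24 h, and 187 and 516 higher at 18 and 48 h. From 24 to 48 h in 0.5% glucose 565 were higher and 3027 lower. The other steps had 33 to 661 higher and 169 to 683 lower. Over the spike-in scales 3296 to 5236 of all genes passed the F test.

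Outside the spike-in scales 1168 values for single members kept their call, 32 lost the call and 4 gained it. The 1168 include differences near 0 that did not pass and changed sign. With array weights 4 members were lower from 12 to 18 h in 2% glucose, against 2. With only the arrays compared 1 was lower in that step and 0 from 18 to 24 h, against 1. Leaving out 1 array gave 0 to 1 lower from 12 to 18 h in 0.5% glucose and 0 to 1 from 18 to 24 h in 2% glucose. From 12 to 18 h in 2% glucose it gave 1 to 2, with 1 exception. Without replicate 3 of 12 h TSL1 (-0.13, adjusted p = 0.0439) was lower beside NTH1 and NTH2. The replicate block, a fit with the pairing by number, gave adjusted p = 0.0521 for TPS2 at 48 h and 0.0565 for its 24 to 48 h step in 0.5% glucose, and changed no other call of a member. Without the 0.5% glucose group at 48 h, an alternative chosen after seeing the data, the correlations of TPS1 with TPS3 and TSL1 were 0.29 and 0.44, against 0.86 and 0.87. The comparison of promoter motifs was not run. Calls under about 0.1 log2 units sit near the spread between arrays, with a median SD of 0.08.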

Other observations

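Kinases known to act on trehalases and stress factors also differed at 48 h on the deposited scale. Of 5 such genes, SNF1, the kinase of glucose derepression, was higher in 0.5% glucose by 0.64 ± 0.04 (limma, adjusted p = 1.15e-11), with 0.15 on the spike-in scale. RIM15, a kinase of entry into stationary phase, was higher by 0.45 ± 0.06 (adjusted p = 2.02e-07), with -0.04 on the spike-in scale. The protein kinase A regulatory subunit BCY1 and catalytic subunit TPK3 were higher by 0.31 and 0.27, with -0.18 and -0.22 on the spike-in scale. TPK2 was lower, at -0.35 ± 0.05 (adjusted p = 5.17e-07). These are counts of 4 higher and 1 lower, where 46.0% and 37.8% of all genes were called. With spike-in group means 1 was higher and 3 were lower, beside 1055 and 3562 of all 5449 genes. These genes were given values after their tests were seen.

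HSP12 and HSP26, heat shock genes of the stress panel, and DDR2, a stress-induced gene, lay at 11.99 to 12.57, close to the highest value of the table. Several arrays of a group held the same value for them.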
